A study of Mus musculus with 36 samples.

Results

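The NAD genes described here were these 10: Nampt, Nmnat1, Nmnat2, Nmnat3, Sirt1, Sirt3, Sirt5, Cd38, Sarm1 and Nnt. They were picked by name, for their roles in making and using NAD and in moving hydride between NADH and NADPH, from a table of raw counts for 56980 mouse genes. All 10 were found by their symbols, and 10 of 10 passed the filter on low counts. The table holds polyA RNA of 36 brain samples from mice aged 37 to 45 days. Samples were labelled Ndufs4 knockout (KO), lacking a subunit of mitochondrial complex I, or wild type (WT), and the mice received CP2, a complex I inhibitor, or vehicle by gavage for 3 days. Every title also carries the letter F or M, which splits the samples into 8 groups. KO vehicle M and WT vehicle M held 3 samples each, and the other 6 groups held 5 each: KO CP2 F, KO CP2 M, KO vehicle F, WT CP2 F, WT CP2 M and WT vehicle F. Each sample is labelled brain, and the study's design speaks of hippocampus with cortex; the share of each region is not given in the sources used here. Mouse strain, the construction of the knockout allele and the CP2 dose are not given in the sources used here.

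NAD carries electrons from fuel oxidation to complex I, which turns NADH back into NAD. Cells rebuild most NAD from nicotinamide: Nampt makes nicotinamide mononucleotide, the rate-limiting step of this salvage route, and the Nmnat enzymes join it to ATP to give NAD. Nmnat1 works in the nucleus, Nmnat2 at the Golgi and in axons, and Nmnat3 in mitochondria. NAD is consumed by sirtuins (Sirt1 mainly nuclear, Sirt3 and Sirt5 mitochondrial), by the glycohydrolase Cd38, which in brain is found largely in glia, and by Sarm1, whose NAD-cleaving activity drives axon degeneration. Nnt, in the inner mitochondrial membrane, passes hydride from NADH to NADP.

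The libraries held 46124548 to 88559920 gene counts (median 54749040). The targeted gene, Ndufs4, lay between 27.4 and 39.1 CPM (counts scaled to the library size) in KO and between 38.9 and 62.8 CPM in WT. On the average of F and M it was lower in KO by a log2 fold change of -0.65 (SE 0.070) with vehicle and -0.45 (SE 0.060) with CP2, so the counts show a lowered and not an absent transcript. The outside-gene read share, the percentage of reads that fell in no annotated gene, ran from 5.09% to 13.2% and differed between groups: its median was 12.1% in KO vehicle M, 10.1% in KO vehicle F, 7.41% in KO CP2 M and 6.77% in KO CP2 F. It was 11.2% in WT CP2 M, 9.55% in WT vehicle M, 5.81% in WT CP2 F and 5.80% in WT vehicle F. A pair of KO CP2 M libraries stood apart from their group. For L266, the chi-square per gene against each other sample of its group averaged at least 83.2, while it was at most 40.7 between the others. Sample L291 had 47.3 CPM of Xist, where the other 15 M samples had at most 0.833 CPM and every F sample at least 439 CPM. For each gene named below, the text therefore says where a call that uses KO CP2 M was lost without both, or that this is not reported. Markers of neurons, astrocytes, oligodendrocytes, microglia and vessels, and of cortex and hippocampus, were detected in every group. So were markers of choroid plexus, striatum and red cells. The summed choroid plexus markers ran from 190 CPM (in KO CP2 M) to 3385 CPM (in KO CP2 F). For striatum the sums ran from 141 CPM (in WT CP2 M) to 876 CPM (in KO CP2 F).

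The promoters of the 2 genes that were both higher in KO than WT under CP2, Nampt and Cd38, are shown because they differ in base composition. Each sequence is the 250 bases before the transcription start in the RefSeq table for GRCm38.p6, 5′ to 3′ on the plus strand, with matches to the GC box GGGCGG on either strand in capitals. The Nampt promoter lies at chr12:32820085-32820334 and the Cd38 promoter at chr5:43868559-43868808.
Nampt: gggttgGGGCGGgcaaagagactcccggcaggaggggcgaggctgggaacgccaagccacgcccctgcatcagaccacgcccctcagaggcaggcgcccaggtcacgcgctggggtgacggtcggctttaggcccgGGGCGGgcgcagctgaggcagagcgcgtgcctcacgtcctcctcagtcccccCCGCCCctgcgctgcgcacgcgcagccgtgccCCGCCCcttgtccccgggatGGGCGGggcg
Cd38: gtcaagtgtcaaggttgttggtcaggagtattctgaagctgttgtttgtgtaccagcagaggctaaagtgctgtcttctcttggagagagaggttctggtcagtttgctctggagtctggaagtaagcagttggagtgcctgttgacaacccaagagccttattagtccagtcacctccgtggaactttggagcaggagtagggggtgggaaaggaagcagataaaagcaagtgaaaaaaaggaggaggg
The Nampt promoter had a GC content of 75.6% and 5 GC box matches, and the Cd38 promoter 48.8% and 0 matches. A GC box was found in 32.7% of 32851 promoters of this length and in 7 of the 9 of these genes with an entry. The E-box CACGTG, present in 6.02% of promoters, was found in 1 of the 9, Sirt1, with 2 matches. A match describes the letters only.

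Per length of transcript, Nmnat2 was the most abundant of the 10, with a median of 31.2 CPM per kb over the 36 samples. Nampt followed at 10.9 CPM per kb, and every Nmnat2 sample lay above every Nampt sample. Sirt3 (6.83 CPM per kb) and Sarm1 (5.80) had overlapping ranges, as had Cd38 (3.21) and Sirt1 (2.97), and Nmnat1 (1.60) and Sirt5 (1.496). Nmnat3 was low at 0.338 CPM per kb and Nnt lowest at 0.0857 CPM per kb. The highest group mean was between 1.13 times (Nmnat2) and 1.58 times (Nmnat3) the lowest, and 2.17 times for Nnt. The scatter within groups, as a coefficient of variation, was 4.96% for Nmnat2, 7.56% for Nampt, 8.25% for Sirt3, 23.0% for Cd38, 31.5% for Nmnat3 and 42.7% for Nnt. The Nnt value should not be read as a level of the whole gene: the annotation holds a second Nnt model on the same strand, at 0 counts in every sample. That model covers 99.4% of the coding bases of the counted one and 47.4% of its exon bases, and 3698 exon bases are not shared. Reads in shared exons may have been set aside as ambiguous, and the counting rule for them is not given in the sources used here.

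**Figure D1:**
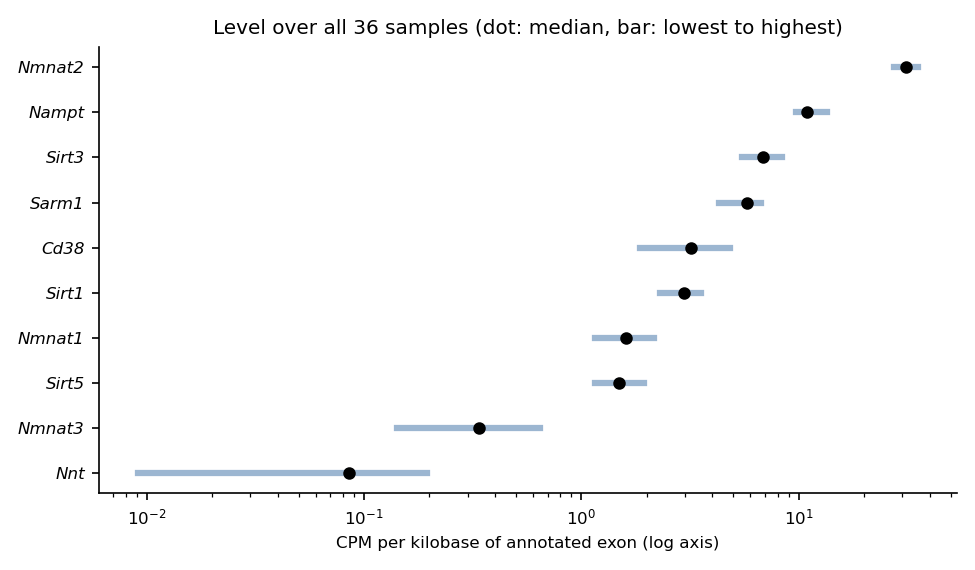
CPM per kb of annotated exon of each of the 10 genes on a log axis, with the median of the 36 samples as a dot and the lowest to highest sample as a bar. The Nmnat2 bar lies above all others, and those of Nmnat3 and Nnt lie lowest.

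Few of these genes changed in any comparison. Calls rest on edgeR's quasi-likelihood test, with p-values adjusted by Benjamini-Hochberg over 25601 genes and a threshold of 0.05. Averages weight F and M equally. With vehicle, 0 of the 10 genes differed between KO and WT, where 6.67% of all tested genes did, and DESeq2 also called 0. Of the 10, 1 (Nmnat2) had an unadjusted edgeR p under 0.05, against 21.6% of all genes. With CP2, 2 of 10 were called, both higher in KO (Nampt and Cd38), against 11.6% of all genes in either direction and 5.54% higher. An unadjusted edgeR p under 0.05 was found for 4 of 10, against 24.9% of all genes. CP2 against vehicle in KO gave 1 of 10, Sirt3, which was higher, against 3.91% of all genes, 2.08% higher. There 3 of 10 had an unadjusted edgeR p under 0.05, against 18.1% of all genes. CP2 against vehicle in WT gave 0 of 10 by edgeR and by DESeq2, 0 of them with an unadjusted edgeR p under 0.05, and 0% of all 25601 genes were called there. At 1031 genes (4.03%) the unadjusted edgeR p was under 0.05 for CP2 in WT. Called counts of 2 and 1 in 10 are too small to be set apart from the shares of all genes called. The median log2 fold change of the 10 was 0.02 for KO against WT with vehicle and 0.02 with CP2, against 0.02 and 0.01 over all genes. The comparison of KO with WT under CP2 and that of CP2 with vehicle in KO share the KO CP2 samples, so their results are not independent. The interaction of genotype and CP2 was called for 0 of 10 in edgeR, against 0.715% of all genes. Its unadjusted edgeR p was under 0.05 for 0 of 10, against 14.6% of all genes. Effects within F and within M were called for 0 of 10 in each of 8 comparisons by edgeR, and DESeq2 called 1 (Cd38) in M under CP2 and 0 in the others. Of all genes, KO against WT gave 4.96% in F and 0.516% in M with vehicle, and 2% in F and 9.99% in M with CP2. CP2 against vehicle gave 0.0859% in F and 5.1% in M in KO, and 0% in both in WT. The F minus M differences were called for 0 of 10, against 0.102% of all genes (KO against WT with vehicle) and 0.691% (CP2 in KO). The samples of the compared groups did not overlap for 1 gene in each of 4 comparisons, given below. They overlapped for all 10 genes between KO and WT in M with CP2 (11.1% of all genes did not overlap) and for CP2 against vehicle in KO F (1.04%), WT F (0.605%) and WT M (4.54%).

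**Figure D2:**
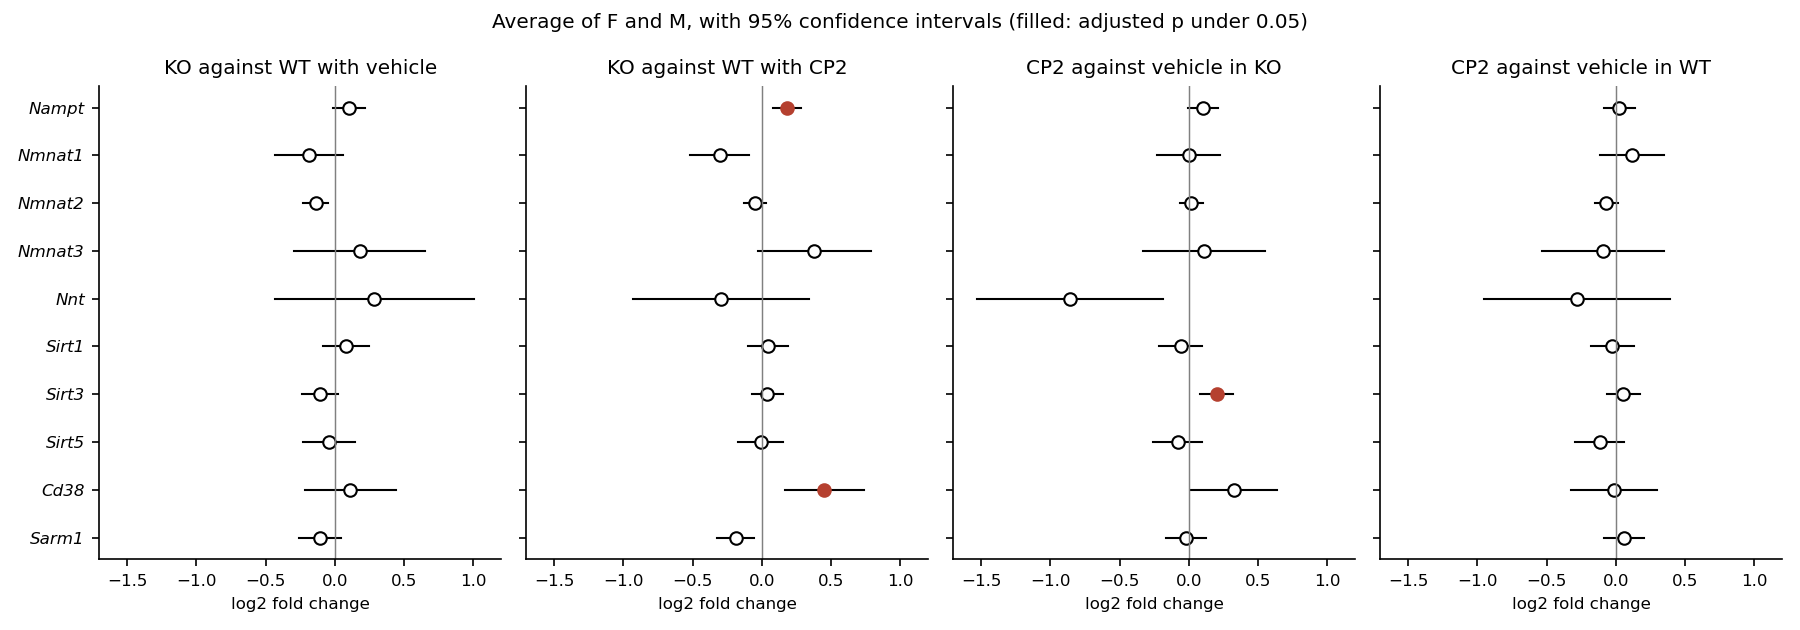
Log2 fold change of each gene in 4 comparisons on the average of F and M, with 95% confidence intervals; filled points have an adjusted p under 0.05. Nampt and Cd38 are filled for KO against WT with CP2, Sirt3 for CP2 against vehicle in KO, and no gene in the other 2 panels.

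With CP2, Nampt was more abundant in KO than in WT. In F, KO CP2 samples had 65.3, 68.5, 63.7, 55.5 and 67.3 CPM and WT CP2 samples 50.1, 57.5, 55.0, 56.3 and 63.5 CPM. In M, KO CP2 samples had 63.4, 65.1, 59.9, 50.4 and 54.9 CPM and WT CP2 samples 53.1, 52.2, 50.8, 49.5 and 53.8 CPM. The groups overlapped, and 4 of 5 KO samples lay above the WT median in F and 4 of 5 in M. The change averaged 1.13-fold (95% confidence interval 1.06 to 1.22; log2 fold change 0.18, SE 0.050, edgeR adjusted p = 0.0133). It was as large in F (0.18) as in M (0.18). Nampt was called in 20 of 20 fits that each left out a sample, with log2 fold changes of 0.16 to 0.21. Without both samples L266 and L291 it was 0.14 with an edgeR adjusted p of 0.0849. Because the tissue was taken in bulk, a change in the share of cells and a change in RNA per cell cannot be told apart, here and below.

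In the other comparisons Nampt missed the threshold. Means with vehicle were 56.6 ± 2.55 CPM (SD, n = 5) in KO F, 57.6 ± 7.42 CPM (SD, n = 3) in KO M, 53.9 ± 1.74 CPM (SD, n = 5) in WT F and 52.4 ± 1.11 CPM (SD, n = 3) in WT M. KO against WT with vehicle gave a log2 fold change of 0.10 (95% confidence interval -0.013 to 0.220), and CP2 against vehicle in KO also 0.10 (-0.0056 to 0.213). In WT, CP2 gave 0.03 (-0.082 to 0.136). The interaction was 0.08 (-0.077 to 0.231, edgeR adjusted p = 0.686), so a larger genotype difference under CP2 than with vehicle was not shown.

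The 3 Nmnat enzymes did not pass the test in any comparison, and the estimates for Nmnat1 and Nmnat2 lay closest to the threshold. Nmnat2, the labile axonal enzyme, had 158, 172 and 180 CPM in KO vehicle M and 188, 189 and 193 CPM in WT vehicle M, without overlap (20.9% of all genes had none between these groups of 3). In F with vehicle it had 180, 181, 173, 178 and 180 CPM in KO and 201.3, 189, 176, 193 and 205 CPM in WT. The average log2 fold change was -0.14 (95% confidence interval -0.227 to -0.046, edgeR adjusted p = 0.0555). With CP2 the KO and WT values overlapped in F and M, and the difference was -0.05 (-0.129 to 0.027). Nmnat1, the nuclear enzyme, had 3.64 to 5.02 CPM in KO CP2 F and 4.72 to 6.48 CPM in WT CP2 F. In M it had 3.78 to 4.997 CPM in KO and 4.82 to 6.56 CPM in WT, and 0 of the 5 KO samples lay above the WT median. Its average under CP2 was -0.30 (-0.517 to -0.0915, edgeR adjusted p = 0.0526), and -0.18 (-0.431 to 0.062) with vehicle. DESeq2 called Nmnat1 under CP2 (adjusted p = 0.0242), as did the fit on the compared groups alone (edgeR adjusted p = 0.0495). Nmnat3, the mitochondrial enzyme, varied widely: samples ran from 0.709 to 3.24 CPM, and the average difference between KO and WT under CP2 was 0.38 (-0.029 to 0.788).

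Nnt, the transhydrogenase, had between 3 and 70 counts per sample. In KO M it had 0.865, 0.740 and 1.22 CPM with vehicle and 0.592, 0.584, 0.384, 0.4928 and 0.380 CPM with CP2. These 2 groups did not overlap, as for 15.3% of all genes. In KO F the values overlapped, from 0.240 to 1.37 CPM with vehicle and from 0.0644 to 0.961 CPM with CP2. The average CP2 effect in KO was a log2 fold change of -0.86 (95% confidence interval -1.53 to -0.188), with an edgeR adjusted p of 0.139. Nnt lies on the same chromosome as Ndufs4, 4.95 Mb away, and whether the alleles there differ between KO and WT was not tested. Of 93 tested genes within 10 Mb of Ndufs4, 8.60% were called between KO and WT with vehicle, against 6.67% of all genes, and 6.45% under CP2, against 11.6%. Nnt itself differed between KO and WT by 0.29 with vehicle (-0.432 to 1.005) and -0.29 with CP2 (-0.927 to 0.340).

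**Figure D3:**
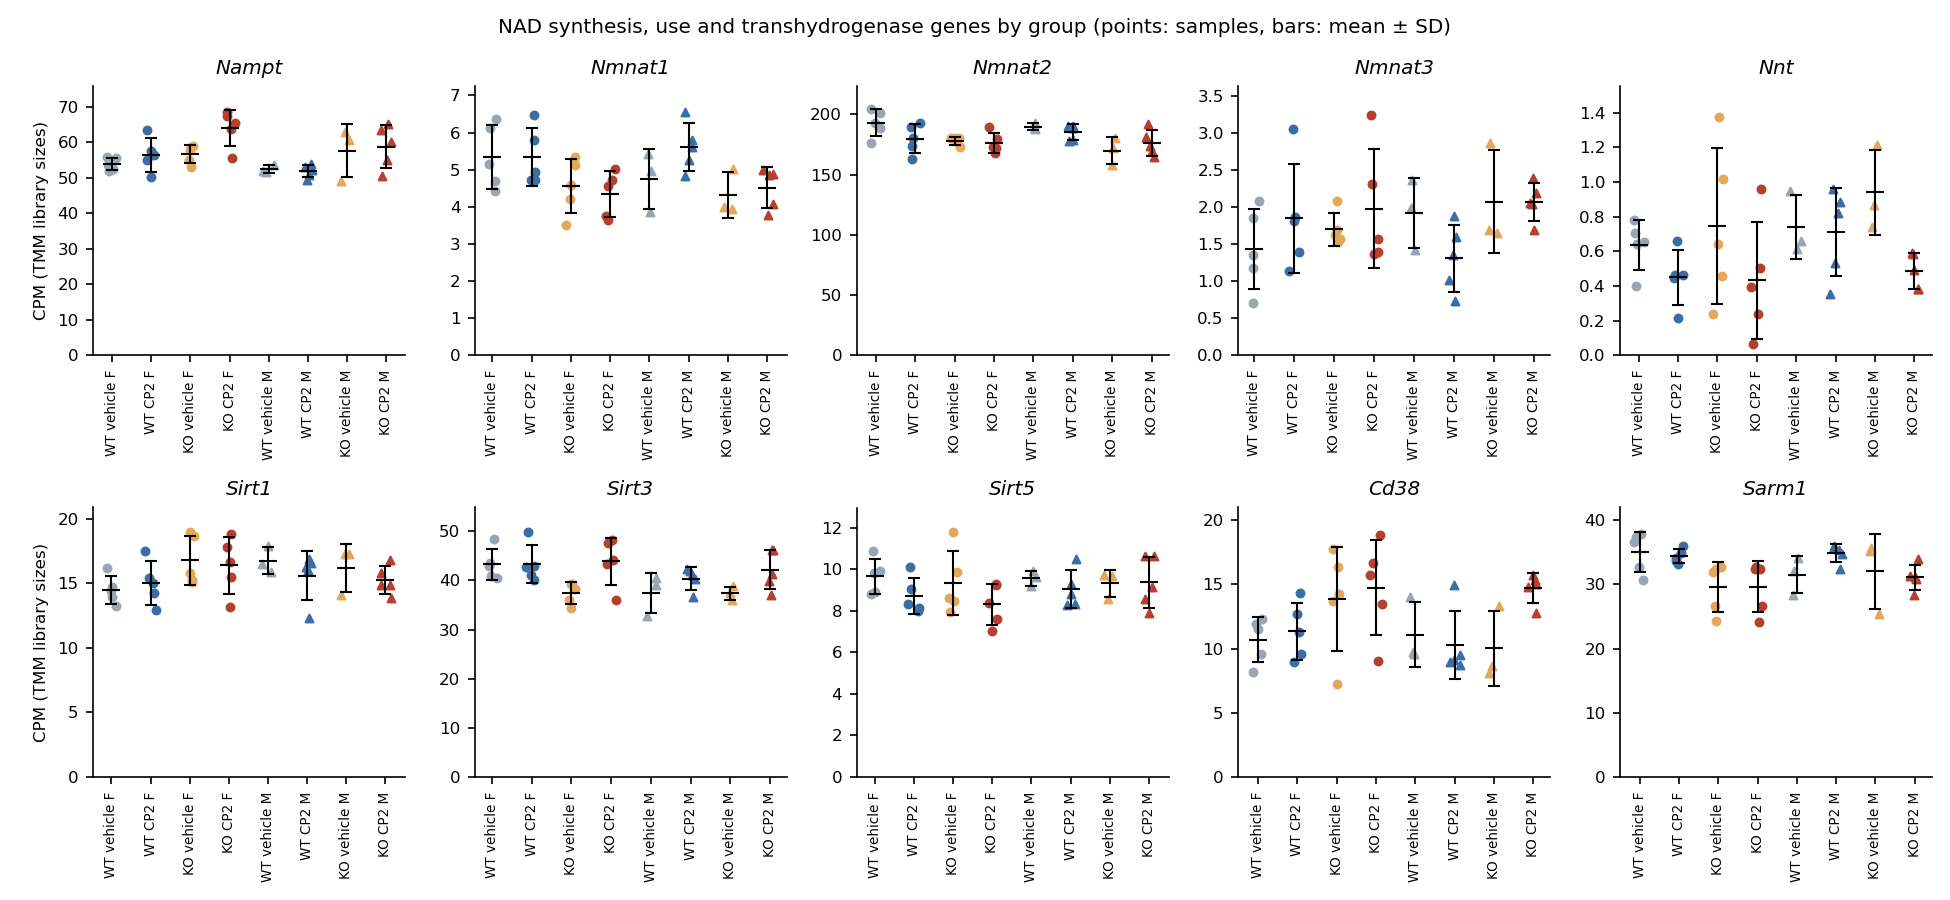
CPM of each of the 10 genes in each sample by group, with the group mean and SD; circles are F and triangles M. The KO CP2 groups have the highest Nampt and Cd38 means within F and within M, and the KO vehicle groups have the lowest Sirt3 values in F.

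Sirt3, the main mitochondrial deacetylase, was higher with CP2 than vehicle in KO. In F it had 36.03, 47.7, 48.2, 43.3 and 44.2 CPM with CP2 and 38.2, 34.3, 39.3, 39.2 and 36.1 CPM with vehicle. In M it had 46.2, 40.0, 41.3, 37.1 and 46.2 CPM with CP2 and 38.8, 37.3 and 36.03 CPM with vehicle. The groups overlapped through 1 CP2 sample in F and 1 in M, and 4 of 5 CP2 samples lay above the vehicle median in each. The change averaged 1.15-fold (95% confidence interval 1.06 to 1.2505; log2 fold change 0.20, SE 0.060, edgeR adjusted p = 0.0474). The call rested on a narrow margin: it held in 4 of 18 fits that each left out a sample, those without L201, L246, L291 or L298, and adjusted p-values ran from 0.0128 without L201 to 0.148 without L322. Without samples L266 and L291 the log2 fold change was 0.19 (adjusted p = 0.110).

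With vehicle, Sirt3 in F had 40.5, 41.0, 42.9, 43.6 and 48.5 CPM in WT, each above every KO sample. Such a gap was found for 4.70% of all genes, and the fitted difference was -0.21 (edgeR adjusted p = 0.107). In M with vehicle KO and WT overlapped (log2 fold change 0.00, 95% confidence interval -0.209 to 0.200). The F minus M difference was -0.21 (-0.464 to 0.053, edgeR adjusted p = 0.728), so a difference between F and M was not shown. Under CP2 KO and WT differed by 0.04 (-0.073 to 0.151). In WT, CP2 against vehicle gave 0.06 (-0.066 to 0.176), and the interaction was 0.15 (-0.025 to 0.317).

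Sirt3 moved with a feature of the libraries. Over the 36 samples, its log2 CPM had a Pearson correlation of -0.63 with the outside-gene read share, as a description across samples that differ in group. In KO the median of that share was higher with vehicle than with CP2, though the samples overlapped. With the share as a covariate the CP2 effect on Sirt3 was 0.07 (edgeR adjusted p = 0.863). That loss is not particular to Sirt3: in the same fit the calls over all genes went from 3.91% to 0% for CP2 against vehicle in KO, and from 6.67% to 1.14% for KO against WT with vehicle. Microglial markers correlated with Sirt3 at 0.61, and 3 of 5 were called higher with CP2 in KO. Their summed level ran from 251.8 to 322.4 CPM in KO CP2 M and from 216.3 to 266.2 CPM in KO vehicle M. In F it ran from 235.8 to 318.9 CPM with CP2 and from 182 to 276 CPM with vehicle. The part of these markers in the Sirt3 result was not tested. By annotation 12.7% of the Sirt3 exon bases overlap Psmd13 and Ric8a on the opposite strand, and whether strand was used in counting is not given in the sources used here. Psmd13 changed by 0.02 (edgeR adjusted p = 0.890) and Ric8a by 0.03 (0.834) with CP2 in KO.

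**Figure D4:**
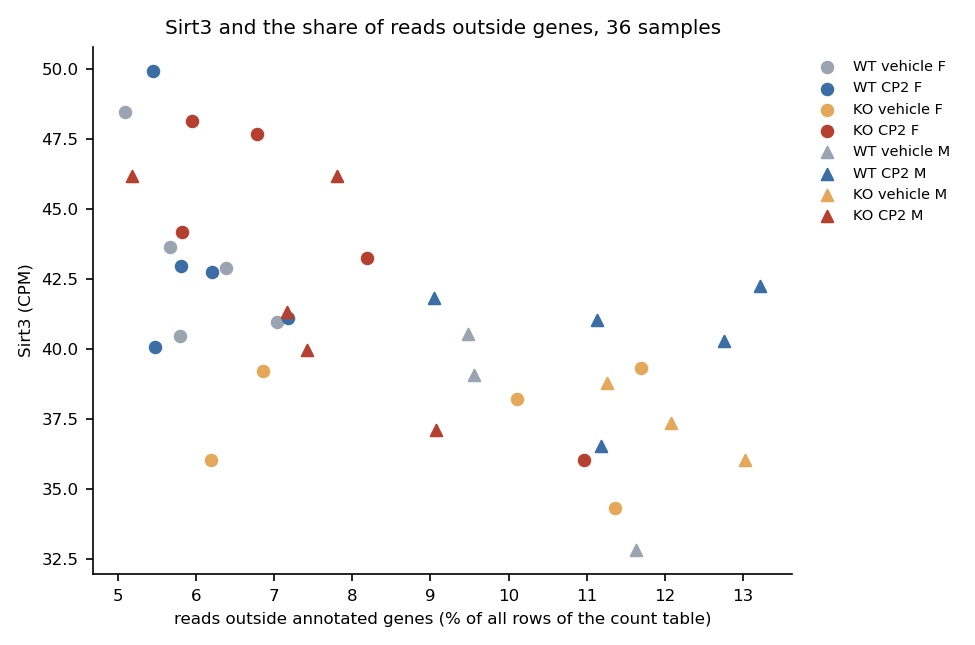
Sirt3 CPM against the percentage of reads outside annotated genes in the 36 samples, with F as circles and M as triangles, coloured by genotype and treatment. Sirt3 is at most 39.3 CPM in the KO vehicle samples, whose shares run from 6.19% to 13.03%, and spreads from 36.03 to 48.2 CPM in the KO CP2 samples, whose shares run from 5.18% to 10.97%.

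Sirt1 and Sirt5 did not pass the test in any comparison. Sirt1, the nuclear deacetylase, had group means between 14.5 CPM (WT vehicle F) and 16.8 CPM (KO vehicle F). Its 95% confidence intervals on the average of F and M ran from -0.087 to 0.248 for KO against WT with vehicle and from -0.099 to 0.191 with CP2. For CP2 against vehicle they ran from -0.216 to 0.097 in KO and from -0.182 to 0.132 in WT. Sirt5, the mitochondrial desuccinylase, had group means from 8.32 CPM (KO CP2 F) to 9.67 CPM (WT vehicle F). Its intervals were -0.232 to 0.146, -0.172 to 0.156, -0.256 to 0.097 and -0.291 to 0.062 in the same order. Changes of more than about these bounds are outside the intervals, and smaller ones could not be seen.

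Cd38, the NAD glycohydrolase, was more abundant in KO than in WT with CP2. In F it had 13.5, 15.7, 9.04, 18.9 and 16.7 CPM in KO and 8.92, 9.57, 12.7, 11.3 and 14.3 CPM in WT. In M it had 15.1, 14.8, 15.7, 12.7 and 15.3 CPM in KO and 14.96, 9.11, 8.71, 8.96 and 9.49 CPM in WT. In M, 4 of the 5 WT samples lay below every KO sample, and the fifth, at 14.96 CPM, lay among them. The change averaged 1.37-fold (95% confidence interval 1.12 to 1.67; log2 fold change 0.45, SE 0.14, edgeR adjusted p = 0.0317). It was called in 12 of 20 fits that each left out a sample, with log2 fold changes from 0.40 to 0.54 and adjusted p-values from 0.00743 to 0.0599. It was not called without L233 or L234 of KO CP2 F, L228 or L240 of WT CP2 F, or L262, L263, L267 or L289 of WT CP2 M. Without samples L266 and L291 the value was 0.45 with an adjusted p of 0.0668. With vehicle the difference was 0.11 (95% confidence interval -0.219 to 0.444), and CP2 against vehicle in KO gave 0.32 (0.013 to 0.634, edgeR adjusted p = 0.251). The interaction was 0.34 (-0.099 to 0.776, edgeR adjusted p = 0.487).

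Astrocyte markers moved with Cd38. Its log2 CPM had a Pearson correlation of 0.58 with their mean over the 36 samples, as a description. The correlation was 0.40 with the mean of oligodendrocyte markers, -0.41 with that of striatum markers and -0.40 with that of cortex markers. The summed level of 6 astrocyte markers ran from 2594 to 4000.5 CPM in KO CP2 M and from 1994 to 2483 CPM in WT CP2 M, without overlap. In F it ran from 2168 to 3873 CPM in KO CP2 and from 2330.2 to 2689 CPM in WT CP2, with overlap. Of the 6, only Gfap was called higher in KO under CP2 on the average of F and M. Their part in the Cd38 result was not tested.

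Sarm1, the axonal NAD hydrolase, was lower in KO CP2 F than in WT CP2 F without overlap, which held for 3.02% of all genes. KO CP2 F samples had 24.2, 26.7, 32.4, 32.4 and 32.7 CPM and WT CP2 F samples 36.03, 33.2, 33.7, 34.1 and 34.8 CPM. In M, KO CP2 samples had 31.2, 28.3, 30.9, 33.9 and 31.3 CPM and WT CP2 samples 35.4, 35.8, 36.05, 32.4 and 34.8 CPM. In M 0 of the 5 KO samples lay above the WT median. The average log2 fold change was -0.19 (95% confidence interval -0.321 to -0.057), with an edgeR adjusted p of 0.0521. DESeq2 called it (adjusted p = 0.0346), and so did 4 other settings, among them the fit with the outside-gene read share (-0.24, edgeR adjusted p = 0.0135). Without samples L266 and L291 it was -0.16 (edgeR adjusted p = 0.156). With vehicle the difference was -0.24 in F and 0.02 in M, and the F minus M difference of -0.27 (-0.573 to 0.037) had an edgeR adjusted p of 0.681. CP2 against vehicle gave -0.02 (-0.162 to 0.123) in KO and 0.06 (-0.083 to 0.202) in WT. Sarm1 had a Pearson correlation of 0.47 with cortex markers over the 36 samples. The summed cortex markers overlapped between KO CP2 and WT CP2 in F (186 to 342 and 251 to 346 CPM), and their part was not tested.

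The other genes of the pathway were taken as 7 lists, whose calls stand beside the 11.6% of all genes called between KO and WT with CP2 and 6.67% with vehicle. List medians of the log2 fold change with CP2 ran from -0.16 (other sirtuins) to 0.13 (NAD synthesis and salvage), against 0.01 over all genes. With vehicle they ran from -0.07 (NADPH supply and use) to 0.06 (other sirtuins), against 0.02. Among the 4 other sirtuins, 1 was called higher and 2 lower in KO under CP2. Sirt2, the cytosolic deacetylase abundant in myelin, rose by 0.31 on the log2 scale (SE 0.060, edgeR adjusted p = 0.000413) and spanned 193 to 239 CPM in KO CP2 F against 169 to 194 CPM in WT CP2 F. In M it spanned 183 to 266.8 CPM and 157 to 191 CPM. Oligodendrocyte markers, of which Mbp was called, had median sums of 10714 and 12477 CPM in KO CP2 F and M and of 9790 and 9916 CPM in WT CP2 F and M, and their part was not tested. The mitochondrial Sirt4 fell by 0.38 (edgeR adjusted p = 0.0150) and the nucleolar Sirt7 by 0.29 (0.00176). Mean Sirt4 was 8.91 CPM in KO CP2 F against 9.36 CPM in WT CP2 F, and 7.90 CPM against 12.8 CPM in M. In M, Sirt7 had 17.8 to 26.9 CPM in KO CP2 against 30.6 to 35.2 CPM in WT CP2. In F it had 22.02 to 25.2 CPM and 22.2 to 26.2 CPM. Sirt2 and Sirt7 kept their calls under all 7 other settings, and Sirt4 lost its call without samples L266 and L291 (-0.32, edgeR adjusted p = 0.0797) and with the outside-gene read share in the fit (-0.29, 0.0504). With CP2 against vehicle in KO, Sirt2 rose by 0.26 (0.0173) and Sirt7 fell by 0.26 (0.0195), and with the outside-gene read share in the fit, where no gene of the table was called, the values were 0.13 (0.725) and -0.15 (0.696). Sirt7 was not called for CP2 in KO without samples L266 and L291 either (-0.21, edgeR adjusted p = 0.0831). On the compared groups alone, neither Sirt2 nor Sirt7 was called for CP2 in KO. With vehicle, 0 of these 4 were called between KO and WT.

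Of 20 genes listed with the other NAD-using enzymes, some of which remove ADP-ribose instead, 2 were called higher and 1 lower in KO under CP2. The lower one was Parp1, the main nuclear poly(ADP-ribose) polymerase and a large consumer of NAD after DNA damage. It fell by 0.31 on the log2 scale (SE 0.049, edgeR adjusted p = 3.99e-05), and it was the only one of the 20 called with vehicle, where it fell by 0.23 (SE 0.056, edgeR adjusted p = 0.0107). KO CP2 samples had 59.9 to 68.7 CPM in F and 52.0 to 69.2 CPM in M, against 71.0 to 84.5 CPM and 75.0 to 85.3 CPM in WT CP2. With vehicle KO had 54.5 to 69.0 CPM in F and 65.2 to 71.9 CPM in M, against 71.4 to 81.6 CPM and 72.9 to 78.5 CPM in WT. Every KO sample thus lay below every WT sample of its treatment and letter. Of all genes, 4.70% had no overlap in F and 20.9% in M with vehicle, and 3.02% in F and 11.1% in M with CP2. The vehicle call was lost once the outside-gene read share entered the fit (-0.19, edgeR adjusted p = 0.143), and the CP2 call held under all 7 other settings. Parp3 rose by 0.48 under CP2 (adjusted p = 0.0382) and Bst1, a relative of Cd38, by 1.64 (0.0245), from a mean of 0.109 CPM in WT CP2. Bst1 was not called without samples L266 and L291 (1.55, edgeR adjusted p = 0.0553) or on the compared groups alone (0.0592). Parp3 was not called with no filter (0.0561), and was called in 9 of 20 fits that each left out a sample.

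Of 20 other genes of NAD synthesis and salvage, 4 were called higher and 1 lower in KO under CP2, and 0 with vehicle. Nadk2, the mitochondrial NAD kinase, rose by 0.22 (SE 0.055, edgeR adjusted p = 0.00568) and held its call under all 7 other settings. Mean Nadk2 was 66.7 CPM in KO CP2 F against 62.9 CPM in WT CP2 F, and 70.6 CPM against 55.1 CPM in M. Qprt, which opens the route from tryptophan-derived quinolinate to NAD, rose by 1.02 (0.0316) from a mean of 0.634 CPM, and Nt5e, an ectonucleotidase, by 0.41 (0.0296). Qprt was not called with the outside-gene read share in the fit (0.93, edgeR adjusted p = 0.0529) and was called in 12 of 20 fits that each left out a sample. Nt5e was not called without samples L266 and L291 (0.36, edgeR adjusted p = 0.0998) and was likewise called in 12 of 20. Nadk2 was also the 1 gene of this list called for CP2 against vehicle in KO (0.23, edgeR adjusted p = 0.0192). Under 4 of 7 other settings that call was lost, among them the fit without samples L266 and L291 (edgeR adjusted p = 0.0967). It was also lost on the compared groups alone and with the outside-gene read share or a hippocampal CA marker score in the fit. It held in 17 of 18 fits that each left out a sample. Of 7 genes of nicotinamide methylation and NADH repair, Nnmt, the nicotinamide methyltransferase, rose by 0.87 under CP2 (0.0481), a call that held in 3 of 20 fits that each left out a sample and was lost under 4 of 7 other settings, among them the fit without samples L266 and L291 (0.90, 0.0775).

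Of 13 genes that pass electrons of NADH between compartments, to lactate or to quinones, 3 were lower and 0 higher in KO with vehicle. Ldha and Ldhb, the lactate dehydrogenase subunits, fell by 0.29 (edgeR adjusted p = 0.0245) and 0.22 (0.0208), and Gpd2, the mitochondrial glycerol 3-phosphate dehydrogenase, by 0.20 (0.0171). With the outside-gene read share in the fit, where 1.14% of all genes were called, the values were -0.12 (adjusted p = 0.539) for Ldha, -0.15 (0.335) for Ldhb and -0.16 (0.179) for Gpd2. Under CP2, 4 of the 13 were higher and 3 lower. Nqo1, a quinone reductase, rose by 0.65 (edgeR adjusted p = 0.00267), while Ldha fell by 0.22 (0.0347) and Gpd1, the cytosolic partner of Gpd2, by 0.20 (0.0169). Beyond these 3 largest changes, Mdh2 (0.14, 0.0221), Slc25a11 (0.14, 0.0164) and Slc25a12 (0.12, 0.0356) were higher and Gpd2 was lower (-0.15, 0.0240). For these smaller changes, the fits without samples L266 and L291 are not reported here. Ldha lost its call under CP2 without samples L266 and L291 (edgeR adjusted p = 0.0768), with no filter and on the compared groups alone. It was called there in 10 of 20 fits that each left out a sample. In CP2 against vehicle in KO 0 of the 13 were called. Of 19 genes of NADPH supply and use, 1 was higher and 3 lower in KO with vehicle. Among these were Me3, a mitochondrial malic enzyme (0.36, edgeR adjusted p = 0.00782), and Mthfd2, the mitochondrial folate dehydrogenase (-0.66, 0.00462). In the fit with the outside-gene read share neither was called (Me3 0.35, adjusted p = 0.0813; Mthfd2 -0.48, 0.135). Mthfd2 was lower under CP2 too (-0.41, 0.0286), where Gsr, glutathione reductase, was higher (0.23, 0.00396), with 2 called in each direction. Txn2, mitochondrial thioredoxin, was the 1 of 19 called for CP2 in KO (0.17, edgeR adjusted p = 0.0436). Its call was lost under 5 of 7 other settings, among them the fit without samples L266 and L291 (0.112). It held in 6 of 18 fits that each left out a sample. Of 12 genes of Nmnat2 turnover and the Sarm1 axon pathway, 2 were higher and 1 lower in KO under CP2 and 0 were called with vehicle. Map3k13, a kinase of axon injury signalling, fell by 0.32 (0.00396), and Stmn2, a labile axonal protein, rose by 0.19 (0.00588). Skp1a, a ubiquitin ligase subunit, rose by 0.14 (0.0276), and was not called with no filter (0.0515), with the outside-gene read share in the fit (0.09, 0.116) or without samples L266 and L291 (0.13, 0.0757). For CP2 against vehicle in KO it was the 1 of 12 called (0.16, edgeR adjusted p = 0.0307), and was not called there without both samples (0.15, 0.0938), on the compared groups alone (0.100) or with the outside-gene read share in the fit (0.06, 0.851). For CP2 in WT, where no gene of the whole table was called, and for the interaction, edgeR called 0 genes of these lists.

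**Figure D5:**
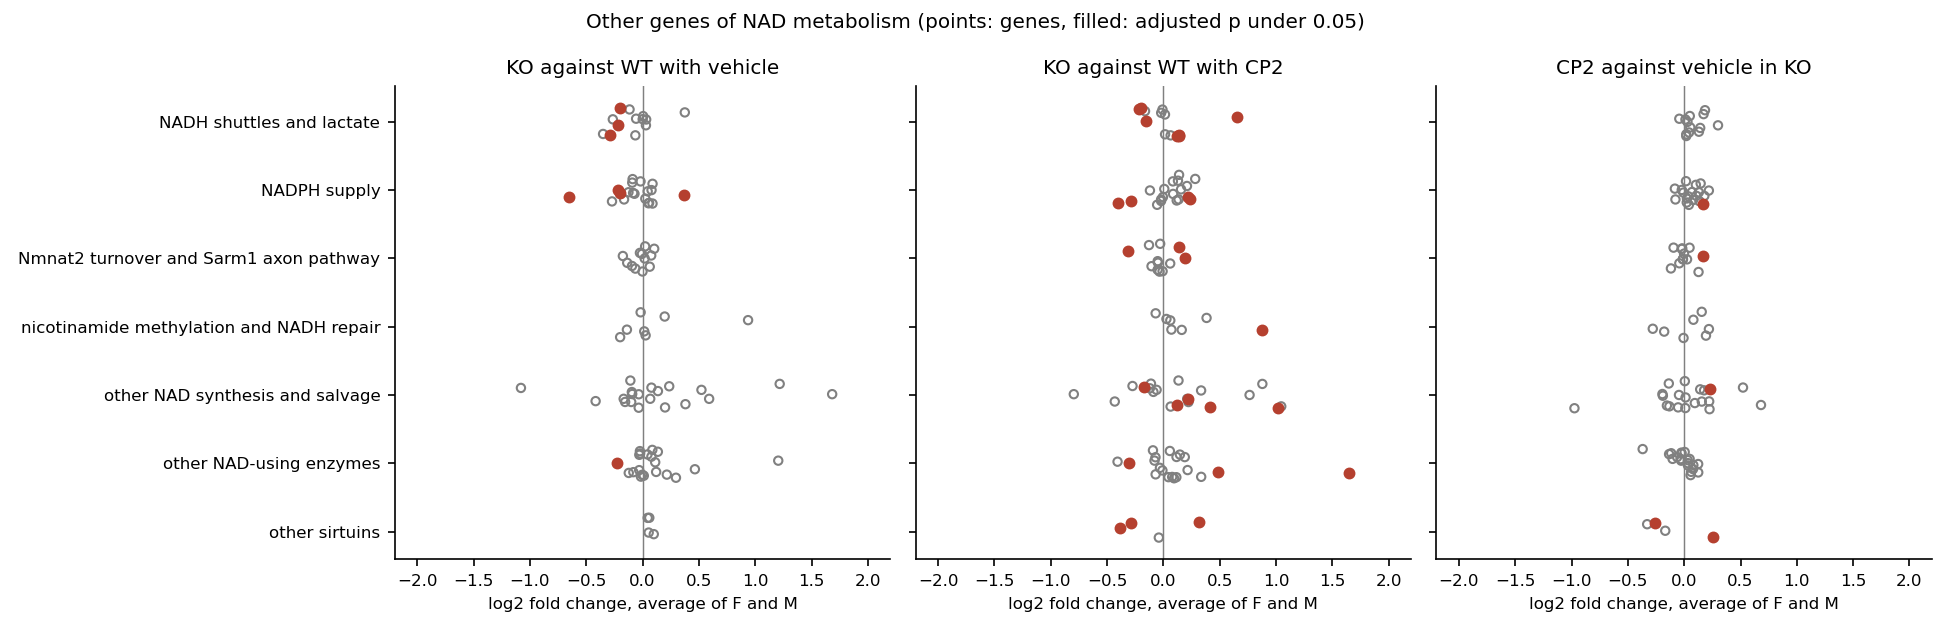
Log2 fold changes on the average of F and M of the other genes of the pathway lists in 3 comparisons, with 1 point per gene; filled points have an adjusted p under 0.05. Calls are spread over both directions in KO against WT with CP2, and Parp1 is the filled point of the other NAD-using enzymes with vehicle.

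The genes were also set beside those most like them, by the Pearson correlation of log2 CPM over the 36 samples, which share depth, letter and group. For Sirt3 these were Brk1 (0.82) and Dctn3 (0.81), for Sarm1 Pde4dip (0.80) and Pcdh1 (0.79), and for Cd38 Sspn (0.79) and Sparc (0.77). For Nmnat2 they were Faim2 (0.77) and Fam20c (0.73). Nmnat1, Nmnat3, Sirt1, Sirt5 and Nnt reached at most 0.69 (Nmnat1 with the unnamed gene ENSMUSG00000120639, and next with Egr1). Among the 10 genes themselves the highest correlations were 0.42, for Nmnat1 with Sarm1 and for Cd38 with Nampt. The lowest was -0.50, for Nampt with Sarm1.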

How the data were processed

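The deposited table holds raw counts per Ensembl gene, which the authors made with STAR and HTSeq on GRCm39, per the submitters' processing notes (no versions given). Per the labels' protocols, total RNA came from a Trizol-based extraction, and libraries were polyA-enriched, with Illumina Truseq 2 named as the kit. The 5 summary lines of the counter were left out of library sizes. They include reads outside genes (5.09% to 13.2% of all rows) and ambiguous reads (1.79% to 2.17%). Symbols, lengths and overlaps came from GENCODE M21 (GRCm38), which named 91.4% of the gene identifiers. No GRCm39 gene coordinates are given for that reason.

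Here, genes were filtered with filterByExpr on the 8 groups, scaled by TMM and tested with edgeR 4.0.16 in R 4.3.3 (estimateDisp, robust glmQLFit, glmQLFTest; all 36 samples, 1 coefficient per group, 15 comparisons). CPM are on TMM library sizes, and log2 CPM used a prior count of 2. Standard errors are the log2 fold change over the square root of F. The script was tested on simulated data. Alternatives were DESeq2 1.42.0, median-of-ratios scaling, no filter, 2 covariates, only the compared groups, and each sample left out.

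The 10 genes, the lists and the naming rule (the up to 3 called genes of each pathway list with the largest change in each averaged comparison, 2 most alike genes per member) were chosen with earlier results of these data known. Each sample number occurs once, and the labels do not state that samples are separate animals, so p-values measure the spread between these samples. Compared over 66 pairs within groups, no 2 libraries agreed within sampling noise. The genes most like Nampt are not reported here.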

Additional observations from a re-analysis of the deposited data

Results flagged for a closer look

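In 60 tests of single samples against their group (10 genes, 6 groups of 5), 2 samples lay far from the rest. Chance flags about 1 in 20 such tests, so 2 in 60 is not more than chance gives. Cd38 in WT CP2 M sample L259 was at 14.96 CPM, and the other 4 samples were between 8.71 and 9.49 CPM. Its gap was 0.876 of the group's range, above the critical value of 0.71. Without this sample, Cd38 differed between KO and WT under CP2 by a log2 fold change of 0.54 (edgeR adjusted p = 0.00743). Sirt1 in WT CP2 M sample L267 was at 12.3 CPM, below the others at 16.03 to 16.9 CPM, with a gap of 0.819 of the range.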

How the results depend on the processing

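Of 95 counts of called members under alternatives that kept the group sizes or dropped both samples L266 and L291 (chosen after seeing the data), 83 stayed within 1.5 times the original count and 12 moved. For KO against WT with CP2 (2 called), the count was 1 with no filter, 0 without samples L266 and L291, 4 on the compared groups alone and 4 with DESeq2. Of all tested genes, these fits called 5.67%, 8.81%, 13.8% and 14.4% in the same order. In M alone (0 called) the member count was 1 on the compared groups and 1 with DESeq2, both Cd38. For CP2 against vehicle in KO (1 called), the member count fell to 0 in 5 fits. These were median-of-ratios scaling (3.90% of all tested genes called), no filter (1.85%) and the fit with the outside-gene read share (0%). It was also 0 without samples L266 and L291 (2.07%) and on the compared groups (0.655%). In KO M alone (0 called) the member count was 1 on the compared groups. With each sample left out in turn, the counts ranged from 0 to 1 (KO against WT, vehicle), 1 to 3 (KO against WT, CP2), 0 to 1 (the same in M) and 0 to 2 (CP2 in KO), and from 0 to 0 in the other 11 comparisons. The cause was not tested, except that fewer samples were fitted where samples were left out. No call of a member reversed. Of 320 estimates, 14 changed sign, none of them called. Nmnat2 with vehicle was called in 1 of 16 fits that left out a sample (edgeR adjusted p = 0.0422), and Nnt for CP2 in KO in 1 of 18 (0.0324). The compared-groups fit could not be made for the interaction, which uses all 8 groups. No paired analysis was possible because no sample number is shared between groups. Depth limits Nnt, with 3 to 70 counts per sample, and Nmnat3, with 37 to 188.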
